A study of Arabidopsis thaliana with 12 samples.

Results

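The 35 aquaporin genes of Arabidopsis were followed in 10-day-old whole seedlings of Col-0 and of 3 lines derived from it. They were picked by locus identifier from the standard family list, and all 35 were among the 33685 genes listed in every deposited table. The family comprised 13 PIP, 10 TIP, 9 NIP and 3 SIP genes. The reference was the accession Col-0. The line doa10a/b RNAi 4-2 is 1 transgenic line that carries an Atdoa10a T-DNA mutation and an RNAi construct against AtDOA10B, which encode 2 membrane-bound ubiquitin ligases. The line amiNAA10 expresses an artificial microRNA against NAA10, the catalytic subunit of the N-terminal acetyltransferase NATA, and naa20 is a mutant of NAA20, the catalytic subunit of NATB. All seedlings were untreated and grew on vertical half-strength MS plates, and each group had 3 libraries made from poly(A) RNA.

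Aquaporins are membrane channels for water and small neutral solutes. PIP proteins act mainly in the plasma membrane, and the PIP1 members commonly need a PIP2 partner to reach it. TIP proteins act in the tonoplast, the membrane of the vacuole. NIP proteins conduct solutes such as boric acid, glycerol and arsenite, and SIP proteins are found in the endoplasmic reticulum. In seedlings these channels are best known for the uptake of water by roots and for cell expansion.

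The deposited values were mean normalized read counts, 1 mean per gene and line. The reads of the 3 libraries behind a mean could be solved for all 35 genes in the RNAi line and Col-0, for 20 genes in amiNAA10 and for 19 in naa20. The more highly expressed genes of the last 2 lines therefore have a mean with no spread, no test was run on them, and no gene with a deposited mean above 999 in amiNAA10 or 999.8 in naa20 could enter those tests. Library numbers below only name the libraries. Solved reads amounted to 14949932 to 19729850 per library in doa10a/b RNAi 4-2 and Col-0, and to 4478951 to 4908493 in the other 2 lines. They covered 79.3% of the summed means in doa10a/b RNAi 4-2, 87.3% in Col-0, 19.8% in amiNAA10 and 21.3% in naa20. These numbers therefore do not compare sequencing depth. The Col-0 reference used for all lines is the one sequenced beside doa10a/b RNAi 4-2. The study relates Col-0 data of another series to amiNAA10 and naa20, and those were not used. In a comparison of amiNAA10 or naa20 with the Col-0 used here, the line and the experiment therefore cannot be told apart. A comparison between those 2 lines does not use this Col-0. The values of both were divided by 1.16 and 1.07, respectively, so that the median gene equalled Col-0, and all values below are on that scale. The study describes the 3 libraries of a group as biological replicates, each from pooled seedlings. Labels do not say whether the pools came from separate plates, so the p-values measure the spread between these pools.

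The targeted genes were read first. NAA10 stood at 93.8, 109 and 117 normalized counts in the amiNAA10 libraries against 918, 845 and 892 in Col-0. DOA10A stood at 943, 789 and 790 in doa10a/b RNAi 4-2 against 2385, 2157 and 2273 in Col-0. DOA10B went against its label, with 496, 512 and 525 in the RNAi line and 299, 277 and 269 in Col-0. The study itself reports reduced DOA10B mRNA in this line by RT-qPCR, with primers upstream and downstream of the RNAi target. NAA20 also went against its label, with 631, 646 and 627 in the libraries labelled naa20. Its Col-0 values were 297, 256 and 236. Counts run over the whole gene, so reads of a construct, of a mutant transcript and of the intact transcript cannot be told apart here.

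Closely related aquaporins could share reads. PIP2-2 (AT2G37170, chr2:15613368-15615022) and PIP2-3 (AT2G37180, chr2:15617635-15619155), neighbours in the RefSeq annotation of TAIR10.1, were the most similar pair, with 94.8% identical aligned positions in their coding sequences. NIP4-1 and NIP4-2 followed with 88.3%. The stretch of coding positions 421 to 510 holds 12 of the differences between PIP2-2 and PIP2-3 and is shown because the values of the 2 genes rest on such positions. Capitals mark bases that differ.
PIP2-2: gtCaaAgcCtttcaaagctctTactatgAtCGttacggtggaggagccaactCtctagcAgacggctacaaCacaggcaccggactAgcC
PIP2-3: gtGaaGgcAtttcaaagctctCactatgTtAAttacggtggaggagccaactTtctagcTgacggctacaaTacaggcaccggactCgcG
Of all windows of 100 bases in the transcript, 12.9% of those of PIP2-2 were found unchanged in PIP2-3, and 12.8% of those of PIP2-3 in PIP2-2. No other member shared such a window with another. The values of these 2 genes are thus less certain than those of the other 33.

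Levels in Col-0 differed widely between members. Per kilobase of transcript, PIP2-1 (AT3G53420) and PIP1-2 (AT2G45960) led with mean levels of 25404 and 25298 normalized counts per kb. The tonoplast channels TIP1-2 (AT3G26520) at 20134, TIP2-1 (AT3G16240) at 11284 and TIP1-1 (AT2G36830) at 10533 followed. PIP2-1 and PIP1-2 were thus nearly level, and the 5 leading genes came from the PIP and TIP groups. PIP genes held 68.3% of the normalized counts of the family, TIP genes 29.4%, SIP genes 1.23% and NIP genes 1.10%. The leading NIP gene was NIP5-1 (AT4G10380), a boric acid channel of roots, at 451 per kb, and the leading SIP gene was SIP1-1 (AT3G04090) at 1296 per kb. All 35 genes together took 0.982% of the summed means in Col-0, 0.785% in doa10a/b RNAi 4-2, 0.806% in amiNAA10 and 0.815% in naa20.

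**Figure D1:**
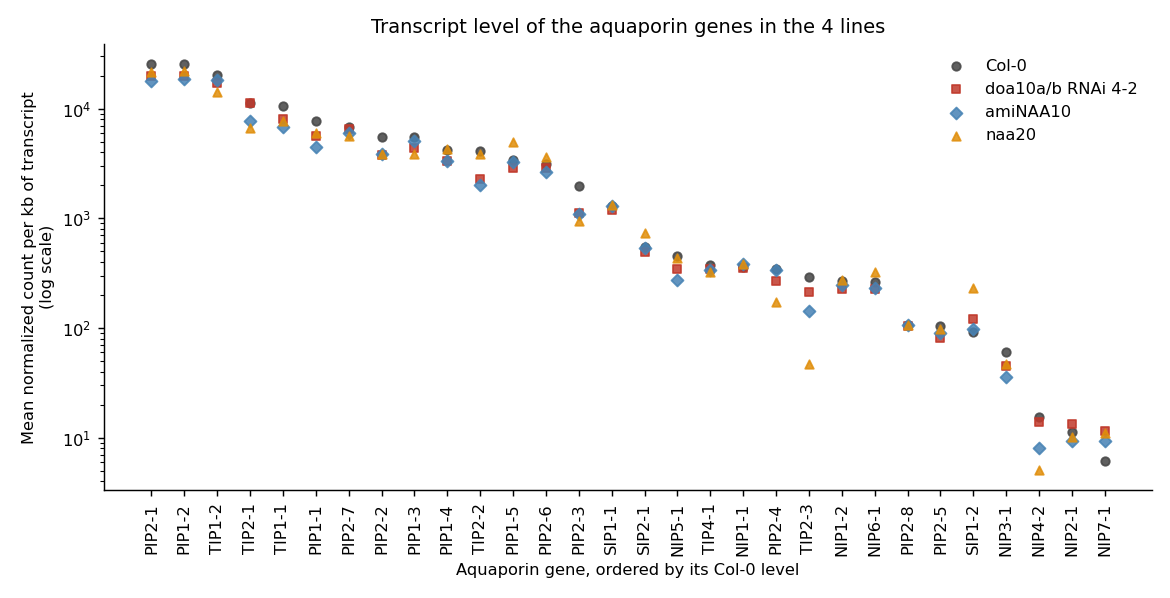
Mean normalized counts per kb of transcript (log axis) of the aquaporin genes with a mean of at least 10 in any line, ordered by their Col-0 level. Each symbol is the mean of 3 libraries of 1 line, and in Col-0 the levels run from 25404 (PIP2-1) to 6.12 (NIP7-1).

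Several members were barely read. NIP4-1 (AT5G37810), known from pollen, had no read in any library. TIP1-3 and TIP5-1, also known from pollen, had at most 3 reads in a library. TIP3-1 (AT1G73190) and TIP3-2 (AT1G17810) are tonoplast channels of the seed. TIP3-1 had 0, 0 and 1 reads in Col-0, 0, 3 and 7 in doa10a/b RNAi 4-2, 7, 19 and 3 in amiNAA10 and 0, 2 and 0 in the libraries labelled naa20. TIP3-2 had 7, 16 and 0 reads in amiNAA10 and at most 4 in any other library. Among the 3 amiNAA10 libraries, the second held most reads of both. Its 8 solved seed storage genes summed to 57.0 normalized counts, against 11.4 and 3.32 in the other 2 amiNAA10 libraries. The reads of the ninth, CRU1, could not be solved. Their part in the TIP3 values was not tested.

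In doa10a/b RNAi 4-2 the aquaporin family was lower than in Col-0. Of 30 members with a mean of at least 10 over both lines, 10 fell and 0 rose by limma's moderated test with Benjamini-Hochberg adjustment over all 20021 genes tested. Over all genes, 1.16% were called lower and 1.17% higher. At an unadjusted limma p under 0.05, reached by 3381 of the 20021 genes in either direction, 1 member had a higher value, NIP7-1. Several members without a call had a lower value at that limit, among them TIP1-2 (limma p 0.00168), PIP2-5 (0.0065) and PIP1-5 (0.00863). The centred ratio of means was below 1 for 26 of the 30 members, and its median was -0.24 on the log2 scale, beside 0 for all genes. The summed counts of the family were 162887, 157925 and 164453 in the 3 RNAi libraries and 205042, 200177 and 194266 in Col-0, so that the groups did not overlap and the mean sum was 19.1% lower. Library reads of 4 abundant members, PIP1-2, PIP2-1, TIP1-2 and TIP2-1, had several solutions, of which the even one was kept, and this narrows the spread of these sums. Without the 4 members the sums were 66612, 63272 and 64989 in the RNAi libraries and 84311, 82328 and 80269 in Col-0, again with no overlap.

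The PIP genes carried most of the calls. All 13 had a ratio of means below 1, and 7 of them fell. PIP1-1 (AT3G61430) read 8914, 8337 and 8964 normalized counts in the RNAi libraries and 12283, 12344 and 11261 in Col-0. Every RNAi library was below every Col-0 library, and the gene fell by 0.45 on the log2 scale (SE 0.062, limma adjusted p 0.00475). PIP1-2 read 29723, 29410 and 30486 against 38444, 39620 and 36463 and fell by 0.35 (SE 0.057, limma adjusted p 0.0108). PIP1-3 (AT1G01620) and PIP1-4 (AT4G00430) fell by 0.32 and 0.31 (limma adjusted p 0.0437 and 0.0266). Only the fifth PIP1 gene, PIP1-5 (AT4G23400), was not called in this group, with a log2 change of -0.22 (SE 0.068, limma adjusted p 0.131). Its 3931, 3803 and 3853 counts were below the lowest Col-0 library at 4204. How many of all genes separate in this way was not counted.

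Among the PIP2 genes, which form efficient water channels, 3 of 8 fell. PIP2-3, first described as a transcript responsive to desiccation, read 1408, 1231 and 1444 counts against 2171, 2471 and 2509 in Col-0. It fell by 0.81 (SE 0.080, limma adjusted p 0.0010). PIP2-2, a contributor to root water transport, read 4836, 4298 and 4676 against 6240, 7392 and 6297 and fell by 0.53 (SE 0.077, limma adjusted p 0.00635). Both genes of the neighbouring pair were lower in each RNAi library than in each Col-0 library, and PIP2-3 moved more on the log2 scale, a difference that was not tested. PIP2-1, a channel of root and guard cells, read 30124, 30007 and 34136 against 39867, 42152 and 37862 and fell by 0.35 (SE 0.070, limma adjusted p 0.0283). The other 5 were not called. PIP2-7 (AT4G35100) and PIP2-8 (AT2G16850) were nearest to Col-0, with log2 changes of -0.06 (SE 0.064) and -0.04 (SE 0.15). PIP2-6 (AT2G39010) differed by -0.13, PIP2-5 (AT3G54820) by -0.38 and PIP2-4 (AT5G60660) by -0.39.

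The TIP genes were split. TIP2-2 (AT4G17340), a tonoplast channel expressed mainly in roots, had the largest fall of the family. It read 3221, 2757 and 3394 counts against 5533, 6146 and 4989, and its log2 change was -0.83 (SE 0.092, limma adjusted p 0.00175). TIP1-1, the major tonoplast aquaporin of vegetative tissue, read 10125, 9927 and 9969 against 13639, 13499 and 11950 and fell by 0.38 (SE 0.064, limma adjusted p 0.0138). TIP2-1, which also conducts ammonia, did not follow them, at 13909, 13539 and 12815 against 15352, 10930 and 13969 and a log2 change of 0.01 (SE 0.10). Its RNAi libraries lay inside the range of the Col-0 libraries in the set of reads kept. TIP1-2 differed by -0.23 (SE 0.057) with a limma adjusted p of 0.0624. TIP2-3 (AT5G47450) read 349, 198 and 200 against 304, 351 and 380, so that 1 RNAi library was at the Col-0 level and 2 were below it.

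Of 8 NIP and 3 SIP genes tested, 1 was called, and the subfamilies were not tested against each other. NIP5-1 was the only called member of either group. It read 824, 694 and 747 counts against 960, 1007 and 969 and fell by 0.38 (SE 0.073, limma adjusted p 0.0253). NIP1-1 (AT4G19030), known for arsenite transport, read 515, 406 and 346 counts against 450, 514 and 317, and the groups overlapped. NIP1-2 (AT4G18910) differed by -0.25 and NIP3-1 (AT1G31885) by -0.45, neither past the test. NIP6-1 (AT1G80760) differed by -0.18. NIP2-1 (AT2G34390) and NIP4-2 (AT5G37820) had 8 to 17 reads per library. TIP4-1 (AT2G25810), of the TIP group, differed by -0.09. NIP7-1 (AT3G06100), known from anthers, was the highest by ratio, but its means were 15 and 8.02 counts and its limma adjusted p was 0.246. Of the SIP genes, SIP1-1 differed by -0.14 (SE 0.065) and SIP2-1 by -0.17 (SE 0.081). SIP1-2 (AT5G18290) read 111, 146 and 179 against 115, 123 and 93.9, with 1 RNAi library inside the Col-0 range (limma adjusted p 0.355). The medians of the ratios were -0.34 for PIP, -0.31 for TIP, -0.16 for NIP and -0.13 for SIP genes on the log2 scale. By ratio of means past 1.5-fold, 2 members were lower (PIP2-3 and TIP2-2) and 1 was higher (NIP7-1), beside 2.32% and 1.48% of all genes, so most of the calls were of modest size.

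**Figure D2:**
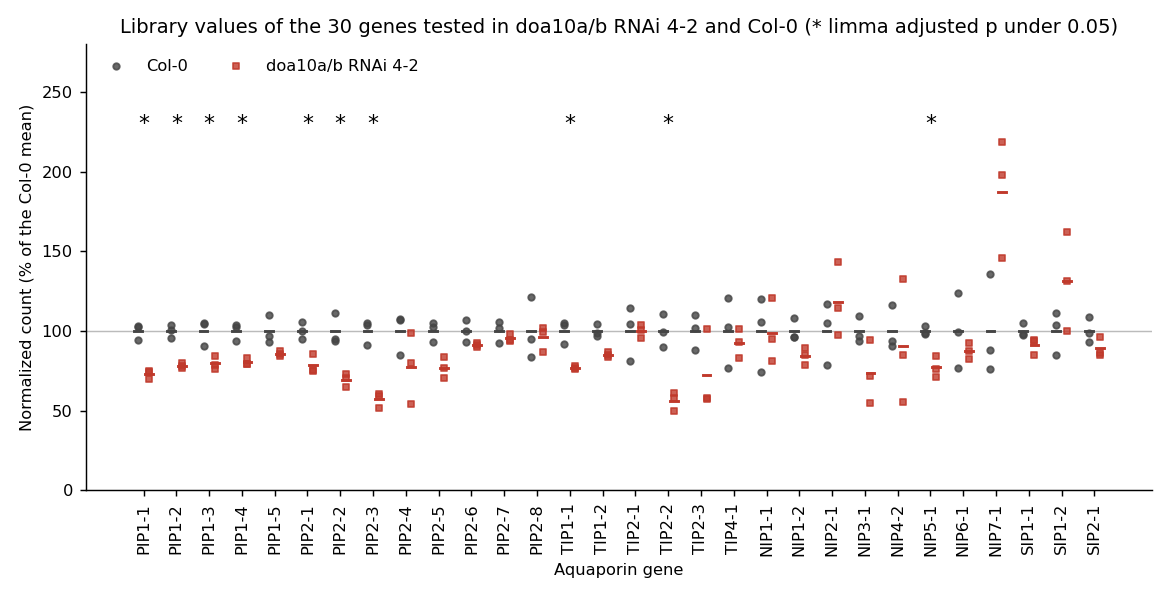
Normalized counts of 30 aquaporin genes in each library of doa10a/b RNAi 4-2 (squares) and Col-0 (circles), as percent of the Col-0 mean of the gene, with short lines for the means of 3 libraries. The 10 genes under a star had a limma adjusted p under 0.05. In each of them the RNAi points lie below the Col-0 points, a separation that being called already favours. For PIP1-2 and PIP2-1 the points are those of the set of reads kept, and some other sets overlap.

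These calls depended on single libraries. Without the second RNAi library 2 members were called lower, without the first RNAi library 6 and without the first Col-0 library 4. Over all genes, 43, 83 and 89 were called lower in these fits, respectively, beside 232 with all libraries. PIP2-3 and TIP2-2 passed the test in all 6 fits that left out a library. PIP1-1 and PIP2-2 passed in 5 of the 6, PIP1-2, PIP2-1, TIP1-1 and NIP5-1 in 3, and PIP1-3 and PIP1-4 in 1. All 10 kept a negative change in those fits. For PIP1-2, PIP2-1, TIP1-2 and TIP2-1 more than 1 set of library reads gives the deposited mean. The set used is the one in which the libraries lie within 20% of the mean. Under any other set the limma adjusted p of PIP1-2 and PIP2-1 was 0.148 or more, so both calls rest on that choice, and TIP1-2 and TIP2-1 remained without a call. The other sets of TIP2-1 put RNAi libraries outside the Col-0 range.

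Other genes tied to these channels were read beside them. The 10 partners and regulators of aquaporins (syntaxins, ubiquitin ligases, kinases and others) had a median log2 ratio of -0.00 with 0 of 10 called. Of 7 proton pump genes 0 were called, and their median was -0.16. Of 5 boron exporter genes tested 1 fell, BOR2, by 0.58 (SE 0.10, limma adjusted p 0.0143). Root marker genes had medians below 0. The 12 root endodermis genes past the filter had a median log2 ratio of -0.24 with 0 called, and the 9 root hair genes -0.28 with 1 called lower, PER73 (limma adjusted p 0.0397). The 10 leaf photosynthesis genes had a median of 0.00. The endodermis genes summed to 5343, 5046 and 4178 counts in the 3 RNAi libraries and 5423, 6352 and 4945 in Col-0, and the root hair genes to 1708, 1623 and 1558 against 2023, 2439 and 1709. Both marker sums were lowest in RNAi library 3, and members ran either way there. PIP2-4, a root aquaporin that was not called, read 498, 404 and 275 counts in the RNAi libraries. NIP3-1, NIP1-1, TIP4-1, PIP1-3 and PIP2-8 were also lowest in library 3, as was TIP2-1 in the set of reads kept. TIP2-2, PIP2-3, PIP1-1, PIP2-5, PIP2-6, NIP1-2, NIP6-1 and the SIP genes had their highest RNAi value in it. So did PIP1-2 and PIP2-1 in the set of reads kept, and NIP2-1, NIP4-2 and NIP7-1 with few reads. The endodermis sums overlapped between the groups. The root hair sums nearly met, at 1708.1 in RNAi library 1 and 1708.6 in Col-0 library 3. The part of the root share in the lower aquaporin values was not tested, and in whole seedlings fewer root cells and less RNA per cell cannot be told apart.

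**Figure D3:**
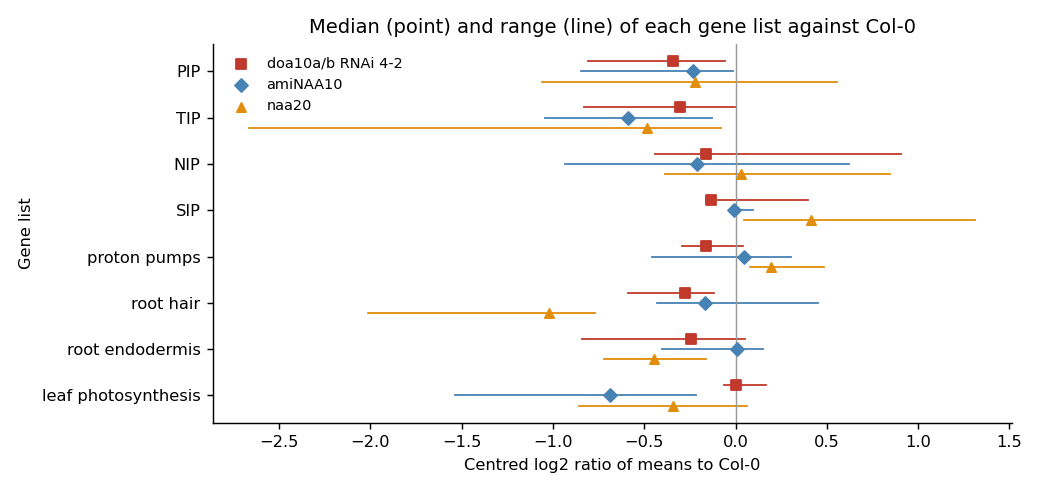
Centred log2 ratios of means to Col-0 (horizontal axis) of each aquaporin subfamily, of the proton pumps and of 3 marker lists, with the median as a point and the lowest and highest gene as the ends of a line, for the 3 lines. The root hair median is -0.28 in doa10a/b RNAi 4-2 and -1.02 in naa20, and the leaf photosynthesis median is -0.69 in amiNAA10.

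In amiNAA10 the family was also lower by its means, with a different order of genes. The ratio of means was below 1 for 27 of 30 members past the filter, and the median was -0.23 on the log2 scale. This value rests on the scaling, since it was -0.02 for the means as deposited and -0.11 when the lines were scaled by their sums. By ratio of means past 1.5-fold, 8 members were lower and 1 was higher, beside 9.49% and 6.16% of all genes. The higher one was NIP7-1, at means of 12.3 against 8.02 counts (limma adjusted p 0.230). Of the 15 members tested, 3 fell and 0 rose by limma. At an unadjusted p under 0.05, reached by 6496 of 15101 genes in either direction, NIP4-2 also had a lower value. Its means were low, 7.36 counts in amiNAA10 and 14.0 in Col-0. Over all genes 16.4% were called lower and 15.8% higher, so the share of members called was near the background.

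The 3 called members in amiNAA10 were TIP2-3, NIP5-1 and NIP3-1. TIP2-3, a root tonoplast channel, read 189, 182 and 132 counts against 304, 351 and 380 in Col-0. The groups did not overlap, and the gene fell by 1.02 (SE 0.14, limma adjusted p 0.000234). NIP5-1 read 612, 625 and 552 against 960, 1007 and 969 and fell by 0.69 (SE 0.065, limma adjusted p 2.33e-05). NIP3-1, an arsenite-permeable channel of roots, read 55.7, 25 and 45.7 against 69.7, 67.6 and 78.6 and fell by 0.82 (SE 0.25, limma adjusted p 0.0271), a call that was lost without amiNAA10 library 2 (-0.48, limma adjusted p 0.0923) and without Col-0 library 1 or 3.

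The highly expressed members have means only. TIP2-2 stood at 2733 against 5556 counts in Col-0, a log2 ratio of -1.02, and PIP2-3 at 1327 against 2384, a ratio of -0.84. PIP1-1 stood at 6977 against 11963 (-0.78) and TIP1-1 at 8482 against 13029 (-0.62). In contrast, PIP1-5 (-0.07), PIP1-3 (-0.12), TIP1-2 (-0.13) and SIP1-1 (-0.01) had means close to those of Col-0. Between these ends lay PIP2-1 (-0.52), PIP2-2 (-0.50), PIP1-2 (-0.43), PIP1-4 (-0.33), PIP2-6 (-0.23), PIP2-7 (-0.19) and TIP2-1 (-0.56). The spread between amiNAA10 libraries is not known for these highly expressed genes, and no call can be made. Of the tested members without a call, PIP2-5 read 151, 172 and 157 counts against 193, 175 and 197. It differed by -0.22 (SE 0.11, limma adjusted p 0.159). NIP2-1, with few reads, differed by -0.25 (SE 0.35). The log2 changes of PIP2-4, PIP2-8, TIP4-1, NIP1-1, NIP1-2, NIP6-1, SIP1-2 and SIP2-1 ran from -0.16 for NIP6-1 to 0.12 for NIP1-1. The SIP genes together were 0.570% below Col-0, the TIP genes 24.0% and the PIP genes 25.2%. Leaf photosynthesis genes had a median log2 ratio of -0.69, with 7 of 10 below the 1.5-fold limit, and the medians of the root hair and endodermis lists were -0.17 and 0.01. Of the lists tested, 1 of 9 root hair genes rose and 1 of 9 endodermis genes fell. Their part in the aquaporin values was not tested. Among the partners and regulators 2 of 8 rose and 2 fell, RMA2, a ubiquitin ligase, by 0.72 (limma adjusted p 0.00099) and the kinase OST1 by 0.25 (limma adjusted p 0.0313). Of the risers, the ubiquitin ligase RMA1, known to act on PIP2-1, rose by 0.51 (limma adjusted p 0.0365). The median was 0.05 for the proton pumps and -0.13 for the boron exporters, with 0 of 4 tested exporters called. BOR2 had a ratio of -0.96, past the 1.5-fold limit, and no library values in amiNAA10.

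The libraries labelled naa20 showed the widest spread among members, and the direction drawn here rests on that label. The log2 ratios of means to Col-0 ran from -2.66 to 1.31, with 19 of 29 members below 1 and a median of -0.13. By ratio of means past 1.5-fold, 4 members were lower (PIP2-3, PIP2-4, TIP2-1 and TIP2-3) and 2 were higher (NIP7-1 and SIP1-2), beside 8.10% and 5.50% of all genes. NIP7-1 had few reads, at 11.4, 25.3 and 6.60 counts against 10.9, 7.06 and 6.12 in Col-0. The groups overlapped, and its limma adjusted p was 0.360. Of 13 members tested, 2 fell and 2 rose by limma, beside 13.2% and 12.6% of all genes. With 2 of 13 in each direction, the shares of members called were again near the background.

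TIP2-3 had the largest change of the family in any line. It read 50.03, 71.1 and 42.4 counts in the libraries labelled naa20 against 304, 351 and 380 in Col-0, and fell by 2.65 (SE 0.19, limma adjusted p 8.76e-07). PIP2-4, a root aquaporin, read 273, 245 and 228 against 542, 545 and 430 and fell by 0.99 (SE 0.11, limma adjusted p 3.35e-05). For both genes no library overlapped Col-0. Root markers moved with them. All 9 root hair genes fell by limma, with a median log2 ratio of -1.02, their sum being 837, 1097 and 1013 counts in the libraries labelled naa20 and 2023, 2439 and 1709 in Col-0. Of 11 endodermis genes tested 6 fell, and the median of the list was -0.45. The part of these root genes in the values of TIP2-3 and PIP2-4 was not tested.

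The 2 risers were both SIP genes, the channels of the endoplasmic reticulum. SIP1-2 read 256, 290 and 278 counts against 115, 123 and 93.9 and rose by 1.33 (SE 0.13, limma adjusted p 8.42e-06). SIP2-1 (AT3G56950) read 925, 859 and 891 against 659, 727 and 624 and rose by 0.44 (SE 0.072, limma adjusted p 0.000625). SIP1-1 has a mean only, 1729 against 1675 counts. Together the SIP genes stood at 118% of their Col-0 sum, NIP genes at 103%, PIP genes at 86.6% and TIP genes at 70.2%. These 4 calls passed the test in all 6 fits that left out a library.

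Close relatives differed in their means. PIP1-5 stood at 6631 against 4503 counts in Col-0, a log2 ratio of 0.56, while PIP1-3 stood at 5990 against 8522, a ratio of -0.51. Within the TIP2 group TIP2-1 stood at 7859 against 13417 (-0.77) and TIP2-2 at 5260 against 5556 (-0.08). TIP2-2, the lowest-ranked member in doa10a/b RNAi 4-2, was thus near its Col-0 mean in naa20. PIP1-4 (0.04) and NIP5-1 (-0.05) were also near it, PIP2-6 was higher (0.21), and PIP2-7 (-0.28), PIP2-1 (-0.22), PIP1-2 (-0.20), PIP1-1 (-0.36), PIP2-2 (-0.51), TIP1-1 (-0.46) and TIP1-2 (-0.51) were lower. No library values were solved for these genes in naa20, and the differences were not tested. Of the tested members without a call, NIP3-1 differed by -0.39 and NIP6-1 by 0.34 (SE 0.14). TIP4-1 differed by -0.16, NIP2-1 by -0.12, PIP2-5 by -0.08, NIP1-2 by 0.05 and NIP1-1 by 0.15. NIP4-2 did not pass the filter, with 3, 4 and 8 reads in the libraries labelled naa20 and 14, 13 and 16 in Col-0. The partners had a median of -0.04, with 1 of 9 called higher and 1 lower, RMA2 (-0.38, limma adjusted p 0.0180). The proton pumps had a median of 0.19 and the boron exporters 0.12, with 0 of 2 exporters called. The leaf photosynthesis genes had a median of -0.34.

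**Figure D4:**
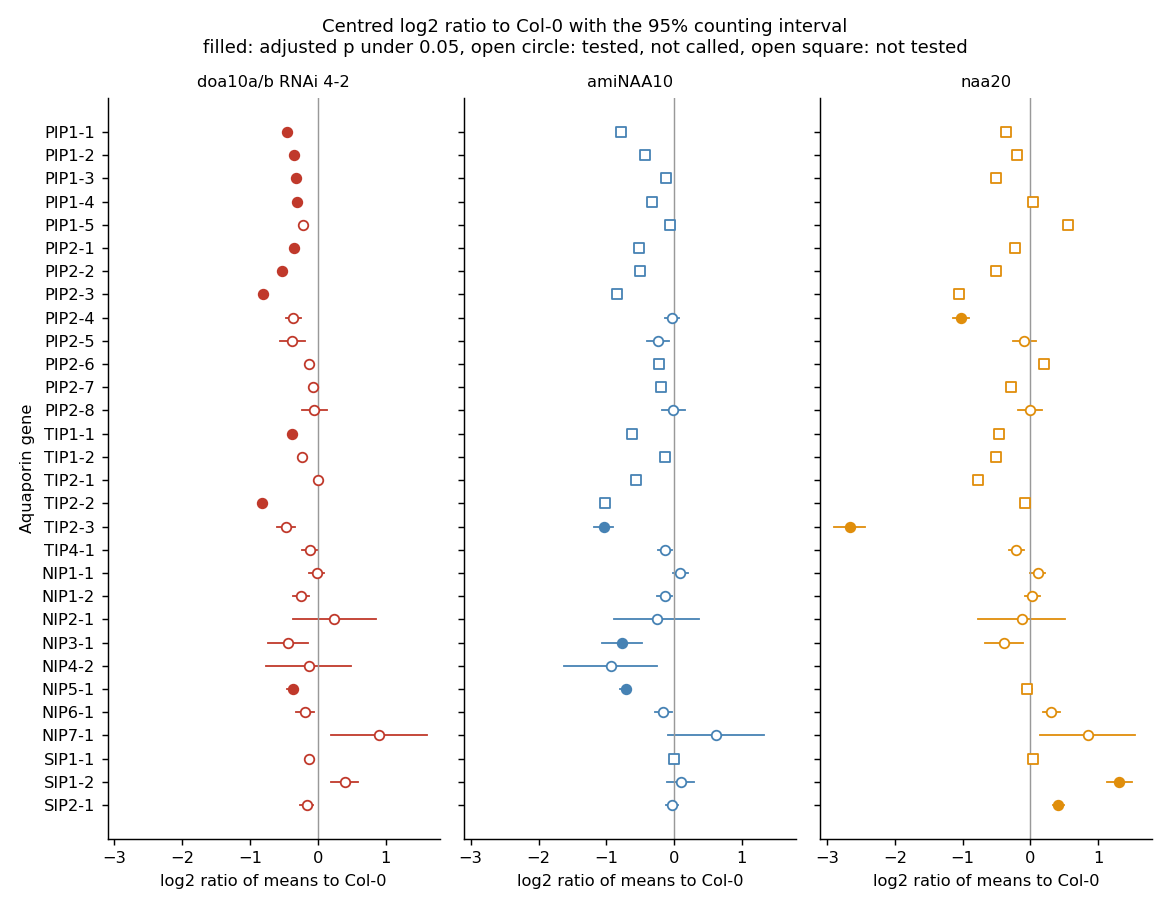
Centred log2 ratio of means to Col-0 of the aquaporin genes past the filter on low means, with 95% intervals for counting error as lines, in 3 panels for the 3 lines. Filled circles were called by limma, open circles were tested and not called, and open squares had no library values. TIP2-3 lies at -2.66 in naa20, and all PIP genes lie left of 0 in doa10a/b RNAi 4-2 and amiNAA10, though without centring PIP1-3, PIP1-5, PIP2-4, PIP2-7 and PIP2-8 lie right of it in amiNAA10.

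The 2 acetyltransferase lines were also set against each other, a comparison that needs no Col-0 library. Of 13 members tested, 3 were higher in the libraries labelled naa20 than in amiNAA10 and 2 were lower, beside 19.8% and 19.9% of all genes. SIP1-2 was higher by 1.22 (SE 0.11, limma adjusted p 2.30e-07), with 130, 109 and 116 counts in amiNAA10. SIP2-1 was higher by 0.45 (SE 0.061, limma adjusted p 1.50e-05) and NIP6-1, a boric acid channel of shoot nodes, by 0.50 (SE 0.14, limma adjusted p 0.00884). NIP6-1 read 341, 399 and 437 counts in naa20 and 248, 378 and 222 in amiNAA10, so the groups overlapped, and its call was lost without amiNAA10 library 1 (limma adjusted p 0.0636) or 3 (limma adjusted p 0.058). TIP2-3 differed by -1.63 (SE 0.20, limma adjusted p 6.26e-06) and PIP2-4 by -0.99 (SE 0.087, limma adjusted p 1.37e-07). PIP2-4 read 478, 520 and 486 in amiNAA10, within the range of the Col-0 libraries.

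By ratio of means past 1.5-fold, 4 members were higher in naa20 than in amiNAA10 (TIP2-2, PIP1-5, NIP5-1 and SIP1-2) and 2 lower (TIP2-3 and PIP2-4), beside 8.81% and 10.1% of all genes. TIP2-2 differed by 0.94 and NIP5-1 by 0.65 on the log2 scale, and neither had library values in naa20. All 9 root hair genes were also lower in naa20 than in amiNAA10 by limma, with a median of -0.95.

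**Figure D5:**
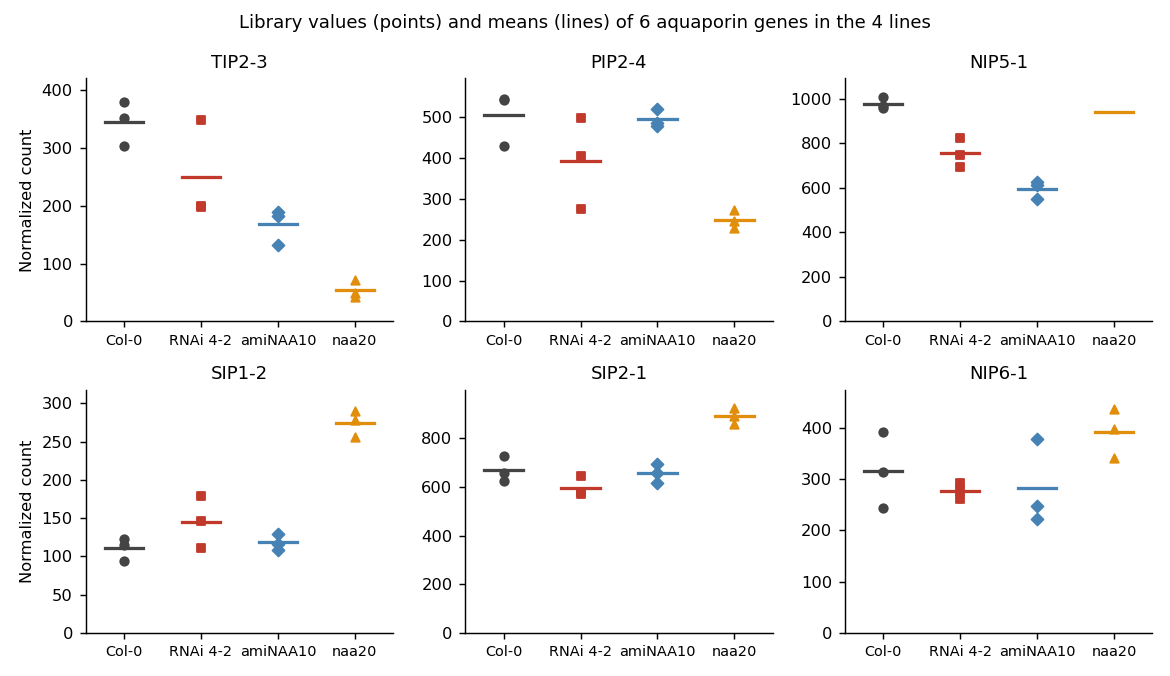
Normalized counts (vertical axes from 0) of TIP2-3, PIP2-4, NIP5-1, SIP1-2, SIP2-1 and NIP6-1 in the 4 lines, with points for libraries and lines for means. NIP5-1 has no library values in naa20. TIP2-3 falls from 304 to 380 counts in Col-0 to 42.4 to 71.1 in naa20, and SIP1-2 lies at 256 to 290 in naa20.

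The 3 comparisons with Col-0 share the Col-0 libraries, so the values of a gene in them are given side by side only. The log2 ratio of PIP2-3 was -0.81, -0.84 and -1.06 in doa10a/b RNAi 4-2, amiNAA10 and naa20. That of TIP2-2 was -0.83, -1.02 and -0.08, and that of TIP2-3 was -0.47, -1.04 and -2.66. At the other end, PIP2-8 had ratios of -0.05, -0.01 and -0.00, with 133 to 193 counts in the Col-0 libraries.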

How the data were processed

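Poly(A) RNA-seq was analysed for 12 seedling samples in 4 groups of 3. The submitters' processing notes name the TAIR10 genome and, with no role given, the tools DESeq 1.18.0, HTSeq 0.6.1, TopHat2 2.0.12 and Bowtie2 2.2.3, and the study's methods name another aligner, so the aligner was not settled. The values deposited by the authors are signal values, mean normalized read counts of 3 libraries per gene and line. The tables also hold the authors' own fold changes and p-values, which were not used. The 2 Col-0 columns beside amiNAA10 and naa20 are assigned to another series by the study and were not used, so 1 Col-0 reference served all comparisons.

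Each mean is a sum of whole reads, each weighted by its library, so the reads were solved from it. Solutions were sought with each library in a range around the mean. Only 1 solution lay in that range for 99.2% of means above 0 in doa10a/b RNAi 4-2, 99.6% in Col-0, 78.8% in amiNAA10 and 81.7% in naa20. In doa10a/b RNAi 4-2 and Col-0, 6 and 4 genes with none were solved in a wider range. Where several existed in these 2 groups, one was kept only if it alone put the libraries within 20% of the mean. In amiNAA10 and naa20, 5165 and 4423 genes with several were left unsolved. Size factors recomputed from solved reads differed from those used by at most 0.0253% in doa10a/b RNAi 4-2 and Col-0. Genes with a mean of at least 10 over both lines were tested with limma-voom (limma 3.58.1, R 4.3.3), two-sided, with Benjamini-Hochberg adjustment over all genes tested and a threshold of 0.05. The design had foreseen only ratios of means, centred on the median gene and counted past 1.5-fold; the test was added once the means were seen to hold reads. Intervals of ratios are 95% and cover counting error only. The scripts were tested on simulated data. Within each group, library pairs differed by more than sampling noise (chi-square per gene 2.08 to 11.2), so none was counted as a duplicate.

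All 35 members are accounted for, and of each gene list at most 3 genes with the largest ratios could be named. The members and lists were chosen with earlier results of these data known. Lengths and sequences came from RefSeq's TAIR10.1 (Python 3.11.15, edlib 1.3.9.post1).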

Additional observations from a re-analysis of the deposited data

How the results depend on the processing

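No paired analysis was possible because the library values solved from the means carry no replicate numbers. Of 699 limma results of members under other settings, 624 kept their direction and side of the threshold, 30 lost the call, 6 gained it and 39 changed sign. None of the 39 was of a called member, and the largest of their log2 changes with all libraries was 0.22 in size. With 1 library left out at a time, the log2 changes of such members ran from -0.067 to 0.28 for NIP1-1, -0.39 to 0.020 for NIP6-1, -0.11 to 0.05 for PIP2-4, -0.090 to 0.17 for PIP2-8, -0.052 to 0.044 for SIP2-1 and -0.27 to 0.030 for TIP4-1 in amiNAA10 over Col-0. They ran from -0.20 to 0.14 for NIP1-1, -0.51 to 0.086 for NIP4-2, -0.15 to 0.10 for PIP2-8, -0.13 to 0.12 for TIP2-1 and -0.26 to 0.047 for TIP4-1 in doa10a/b RNAi 4-2 over Col-0. They ran from -0.038 to 0.29 for NIP1-1, -0.30 to 0.089 for NIP2-1, -0.19 to 0.05 for PIP2-5 and -0.089 to 0.17 for PIP2-8 in naa20 over Col-0. They ran from -0.13 to 0.15 for NIP1-1, -0.050 to 0.34 for NIP2-1, -0.45 to 0.45 for NIP7-1, -0.11 to 0.075 for PIP2-8 and -0.13 to 0.021 for TIP4-1 in naa20 over amiNAA10. With libraries scaled by their summed reads, the log2 changes that turned were -0.0073 for TIP2-1 in doa10a/b RNAi 4-2 over Col-0, 0.0045 for PIP2-4 in amiNAA10 over Col-0, 0.0036 for SIP2-1 in amiNAA10 over Col-0 and -0.013 for PIP2-8 in naa20 over amiNAA10. Of 580 ratios of means, 31 changed sign, 0.19 or less in size as reported, among them PIP1-3 and PIP1-5 in amiNAA10 without centring. Leaving out 1 library at a time gave 2 to 11 members called lower in doa10a/b RNAi 4-2, beside 43 to 334 of all genes. In amiNAA10 1 member was called higher by limma with no filter on means. The median log2 ratio of the members in amiNAA10 was -0.023 without centring and -0.11 scaled by sums, and that of naa20 over amiNAA10 was 0.051 and 0.050 in these settings. With a limit of 25% above or 20% below the reference, doa10a/b RNAi 4-2 had 2 members higher and 13 lower, amiNAA10 13 lower, naa20 4 higher and 10 lower, and naa20 over amiNAA10 10 higher and 4 lower. With 2-fold these were 0 and 0 in doa10a/b RNAi 4-2, 0 and 2 in amiNAA10, 1 higher in naa20, and 1 and 1 in naa20 over amiNAA10. With a mean of at least 50, the members higher were 0 in doa10a/b RNAi 4-2, 0 in amiNAA10 and 1 in naa20. With no filter they were 3, 3 and 4, and 5 were lower in naa20 over amiNAA10. With a pseudocount of 1, 0 were higher in amiNAA10. Without centring 4 were lower in amiNAA10 and 2 higher in naa20 over amiNAA10, also 2 when scaled by sums. The cause of these shifts was not tested beyond the settings' own construction. Members without library values have no test, and depth per library limits those with few reads.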
